A study of Mus musculus with 18 samples.

Results

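Gpx2 and Gpx3 are glutathione peroxidases that carry selenocysteine, an amino acid written by a UGA codon in their mRNAs. They are 2 of the 23 selenoprotein genes in the deposited tables and were taken by name, as rows of the tables of mRNA, of ribosome footprints 5' of the UGA and of footprints 3' of it. The livers came from male mice of 5 to 8 weeks. The knockouts had lost Secisbp2 (genotype Alb-Cre; Secisbp2fl/fl) or Trsp (Alb-Cre; Trspfl/fl), and each had its own wild type, described in the labels as male littermates with wild type alleles; whether these carried Cre is not given. Alb-Cre cuts floxed genes in cells with an active albumin promoter, chiefly hepatocytes. Which cells of these livers had lost either gene was not checked. Each assay had 3 libraries of Trsp wild type livers and 2 of every other group, 18 in all. None of 24 marker genes looked up for hepatocytes, bile duct, macrophage, endothelial, stellate, gut and kidney cells is a row of these tables, so that neither the tissue nor its cell makeup was checked, and in whole liver a change in cell numbers and a change in RNA per cell cannot be told apart.

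Glutathione peroxidases use glutathione to reduce hydrogen peroxide and lipid peroxides. Gpx2 is best known from the epithelium of the gut and is a target of NRF2, the transcription factor of the oxidant response. Gpx3 is secreted, and the Gpx3 of plasma comes largely from the kidney. To read a UGA as selenocysteine, the ribosome needs the selenocysteine transfer RNA, which Trsp encodes, and a hairpin in the mRNA, the SECIS element, which the protein SECISBP2 binds. Footprints 5' of the UGA come from ribosomes that have started translation, and footprints 3' of it from ribosomes that have passed the UGA. The question of the comparisons was how the loss of either factor changed mRNA abundance, the start of translation and the passage of the UGA.

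Values are RPKM, reads per kilobase of the counted window, scaled to the mapped reads of the library. Both genes are low in liver, so the reads behind each value are given. Within a library, what 1 read adds to a gene's RPKM is constant, and the smallest whole numbers that satisfy all values put the depth at 5065579 to 20645294 mapped reads for the 9 footprint libraries and 6522357 to 36510084 for the 9 RNA libraries. On the same basis the Gpx2 windows were 87 nt 5' of the UGA, 437 nt 3' of it and 1071 nt for mRNA, and those of Gpx3 were 186, 446 and 1517 nt. Exact 95% intervals on reads are for counting error only and leave out the spread between livers. They take reads as independent, while PCR copies are not independent molecules and the labels name no molecular identifiers. The intervals may thus be too narrow for counting error as well.

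The bases just before the transcription start of each gene are shown because the mRNA of Gpx2 moved between genotypes and that of Gpx3 was not called in any comparison as fitted over all libraries with the authors' scaling. They are the 250 bases upstream of the start in the RefSeq promoter table for GRCm38.p6, 5' to 3' on the gene's strand, at chr12:76795555-76795804 on the minus strand for Gpx2 and chr11:54902604-54902853 on the plus strand for Gpx3. Capitals mark a match to any of 3 motifs searched on both strands.
Gpx2: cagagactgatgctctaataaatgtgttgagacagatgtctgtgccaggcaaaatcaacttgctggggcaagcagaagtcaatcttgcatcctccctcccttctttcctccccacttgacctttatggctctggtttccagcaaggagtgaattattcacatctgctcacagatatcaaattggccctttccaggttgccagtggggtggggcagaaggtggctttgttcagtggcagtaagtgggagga
Gpx3: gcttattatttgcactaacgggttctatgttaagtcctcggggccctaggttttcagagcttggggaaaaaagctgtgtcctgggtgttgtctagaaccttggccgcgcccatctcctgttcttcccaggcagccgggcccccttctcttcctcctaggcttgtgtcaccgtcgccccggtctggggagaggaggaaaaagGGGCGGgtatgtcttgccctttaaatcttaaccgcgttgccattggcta
The motifs were the core of the antioxidant response element, through which NRF2 acts (TGACNNNGC), the GC box (GGGCGG) and the TATA box (TATAAA). No 2 motif matches overlapped. The Gpx3 window held a single GC box at positions -49 to -44 from the start, and 32.7% of 32851 promoter windows of this length hold one on either strand. The Gpx2 window held none of the 3 sets of letters, against 10.2% of windows with the antioxidant response core and 12.4% with the TATA box. A match is a description, and a missing match says only that these letters are not in the window.

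Gpx2 mRNA was nearly absent from Trsp wild type livers and was the one mRNA of the 20 tested that rose in Trsp knockout livers under the authors' scaling. The 3 wild type libraries held 1, 0 and 2 reads, or 0.0472, 0 and 0.0817 RPKM, which is at or below a floor of 3 reads in each library. The knockout libraries held 379 and 404 reads, or 11.2 and 18.9 RPKM. Both knockout livers lay far above all 3 wild types. The ratio of the summed read rates was 331, with an exact 95% interval from 113 to 1607. The limma log2 change of RPKM + 0.5 was 4.80 (SE 0.34, adjusted p = 1.91e-06 over 20 genes). In this comparison 75% of the genes tested were called, but 5% in the upward direction and 70% downward. The fitted change depended on what was added to each value: it was 6.72 with 0.1 RPKM and 3.90 with 1 RPKM, with an adjusted p of 2.87e-06 and 1.15e-06. The genome also holds a Gpx2 pseudogene, Gpx2-ps1, and the treatment of shared reads is not known.

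Ribosomes were found on this mRNA in Trsp knockout livers. Footprints 5' of the UGA numbered 19 and 29 in the knockouts, or 37.4 and 41.4 RPKM, and 0 in each of the 3 wild types. With 3 reads taken as the floor for a count of 0, the wild type libraries allow 4.76, 5.80 and 6.81 RPKM, and the upper ends of the exact 95% intervals were 5.85, 7.13 and 8.37 RPKM. Both knockout livers were above all of these. Against a floor of 3 reads over the whole wild type group, Gpx2 footprints were at least 21.0-fold higher in the knockout. On the log2 scale limma gave 6.32 (SE 0.31, adjusted p = 1.31e-06), in a comparison where 60% of 20 genes were called, 5% upward and 55% downward. The 3 wild types entered this fit as identical values, so they add no spread to the SE. It and the adjusted p thus leave out the counting error of 0 reads, also in the other 5' comparisons of Gpx2, which share the fit.

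The plot of Gpx2 by library shows how far the Trsp groups lie from each other in mRNA and 5' footprints, with the Secisbp2 groups between them.

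**Figure D1:**
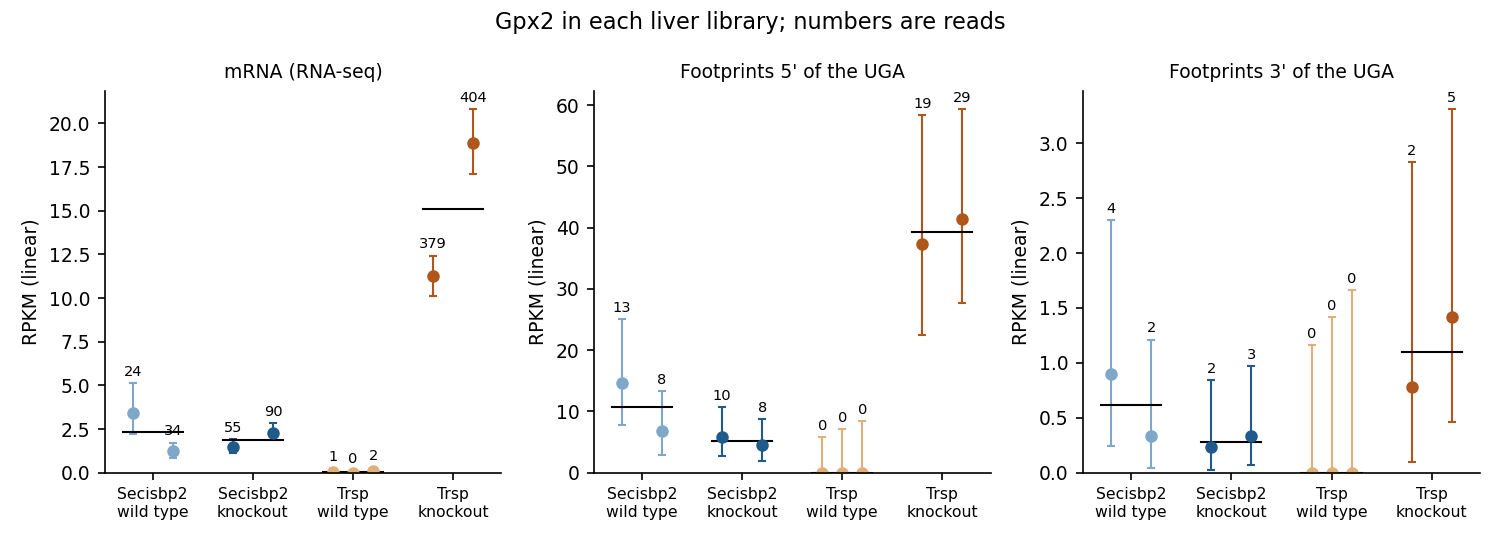
Gpx2 in each liver library, as RPKM on linear axes, for mRNA and footprints on each side of the UGA; points are libraries, bars exact 95% counting intervals, black lines group means, and the number above each bar is the reads. Trsp knockout libraries held 379 and 404 mRNA reads and Trsp wild type libraries 1, 0 and 2.

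The wild type livers of the 2 colonies differed in Gpx2. In Secisbp2 wild type livers Gpx2 mRNA had 24 and 34 reads, or 3.44 and 1.23 RPKM, both above all 3 Trsp wild types. The limma log2 difference, Trsp wild type minus Secisbp2 wild type, was -2.27 (SE 0.34, adjusted p = 0.000562), where 45% of the 20 genes were called. The ratio of read rates, Secisbp2 over Trsp wild type, was 39.1 (exact 95% interval 12.7 to 195). For footprints 5' of the UGA the Secisbp2 wild types had 13 and 8 reads, or 14.7 and 6.74 RPKM, against 0 in the Trsp wild types. That was at least 5.37-fold higher than the floor over the Trsp wild type group. The limma log2 difference was -4.39 (SE 0.31, adjusted p = 1.95e-05), where 15% were called. Here too the identical 0 values of the Trsp wild types add no spread to the SE. With Secisbp2 wild type as control, Gpx2 in Trsp knockout livers was still higher, by 2.53 for mRNA (adjusted p = 0.000274) and 1.92 for 5' footprints (adjusted p = 0.00239) on the log2 scale. All Trsp libraries share a code prefix in the labels, while the wild type and the knockout of Secisbp2 each have another. The effects of colony or of Secisbp2 loss and those of the library set thus cannot be told apart, while the Trsp knockout and its wild type lie within a single set.

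Gpx2 mRNA was not called as changed in Secisbp2 knockout livers. It had 55 and 90 reads in Secisbp2 knockout livers, or 1.46 and 2.30 RPKM, and both lay between the 2 wild type values of 1.23 and 3.44 RPKM. By limma, the log2 change was -0.16 (SE 0.37, 95% interval -1.002 to 0.69, adjusted p = 0.687), with 70% of the 20 genes called, 20% upward and 50% downward. The ratio of summed read rates was 1.13 (exact 95% interval 0.825 to 1.56), so that the sign differs between these measures. The direction turned with the control chosen: against Trsp wild type the change was 2.11 (adjusted p = 0.000305). It also turned on which wild type library was used, at 0.44 (adjusted p = 0.192) if replicate 1 of that group was left out and -0.75 (adjusted p = 0.0467) if replicate 2 was. Replicate 1 of this group was the shallowest RNA library.

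Footprints 5' of the UGA of Gpx2 had 10 and 8 reads in Secisbp2 knockout livers, or 5.85 and 4.45 RPKM, and both lay below the wild type values of 14.7 and 6.74 RPKM. The limma log2 change was -0.90 with an SE of 0.34 and did not pass (adjusted p = 0.0604), in a comparison where 45% of genes were called. It was -1.44 if replicate 2 of the wild type was left out and -0.37 if replicate 1 was, with a single wild type library left in each case. Against Trsp wild type, which had 0 reads, it was 3.49 (adjusted p = 5.22e-05).

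By group mean, Gpx2 mRNA thus ran from 0.0430 ± 0.0410 RPKM (SD, n = 3) in Trsp wild type through 1.88 ± 0.592 (SD, n = 2) in Secisbp2 knockout and 2.33 ± 1.56 (SD, n = 2) in Secisbp2 wild type to 15.1 ± 5.42 (SD, n = 2) in Trsp knockout. The middle groups overlapped, and the lowest and the highest group overlapped with no other. Replicates differed by more than the counting error of independent reads. The ratio of the higher to the lower liver was 2.78 (exact 95% interval 1.58 to 4.84) in Secisbp2 wild type, 1.57 (1.11 to 2.24) in Secisbp2 knockout and 1.68 (1.46 to 1.94) in Trsp knockout. Ranked by RPKM among the 23 selenoprotein mRNAs, Gpx2 was 21st or 22nd from the top in Trsp wild type, 18th to 20th in the Secisbp2 groups and 14th in both Trsp knockout livers.

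The change of Gpx2 differed between the knockouts when this was tested directly. The Trsp effect minus the Secisbp2 effect was 4.95 on the log2 scale for mRNA (SE 0.50, limma adjusted p = 0.000111) and 7.22 for 5' footprints (SE 0.46, adjusted p = 9.11e-06). In these tests 70% and 55% of the 20 genes were called, 35% and 25% upward and 35% and 30% downward.

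Gpx3 mRNA was at a low and even level in all 9 livers. It had 12 and 76 reads in Secisbp2 wild types (1.21 and 1.95 RPKM) and 54 and 73 in the matching knockouts (1.02 and 1.32 RPKM). Trsp wild types had 49, 46 and 55 reads (1.63, 1.35 and 1.59 RPKM) and Trsp knockouts 75 and 44 (1.57 and 1.45 RPKM). The highest and lowest values of all 9 livers were 1.95 and 1.02 RPKM, and each knockout overlapped its wild type. Gpx3 ranked 18th to 20th of the 23 mRNAs in every library. The 12 and 76 reads of the Secisbp2 wild types differed in rate by 1.61 times, within counting error (exact 95% interval 0.868 to 3.24).

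The limma log2 change of Gpx3 mRNA was -0.00494 in Trsp knockout (SE 0.16, 95% interval -0.37 to 0.36, adjusted p = 0.976). In Secisbp2 knockout it was -0.30 (SE 0.18, 95% interval -0.71 to 0.10, adjusted p = 0.166), and the ratio of read rates was 0.650 (exact 95% interval 0.492 to 0.863). The log2 change in Secisbp2 knockout was -0.56 without replicate 1 of the wild type and -0.045 without replicate 2. A single wild type library is left in each case. The wild type groups differed by -0.02 (SE 0.16, adjusted p = 0.920) and the knockout effects by 0.30 (SE 0.24, adjusted p = 0.332). The latter difference was 0.56 without replicate 1 of the Secisbp2 wild type and 0.040 without replicate 2. These values rest on the authors' scaling to mapped reads. With libraries scaled to the median ratio of the selenoproteins, which shifts the knockout changes up by 0.50 and 0.56, Gpx3 mRNA was at 0.20 in Secisbp2 knockout (adjusted p = 0.256) and at 0.56 in Trsp knockout (adjusted p = 0.00793). This scaling takes the median selenoprotein as unchanged, while 50% and 70% of the mRNAs were called lower. The upward shift is thus set in advance, and the passing value is no evidence of a rise.

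**Figure D2:**
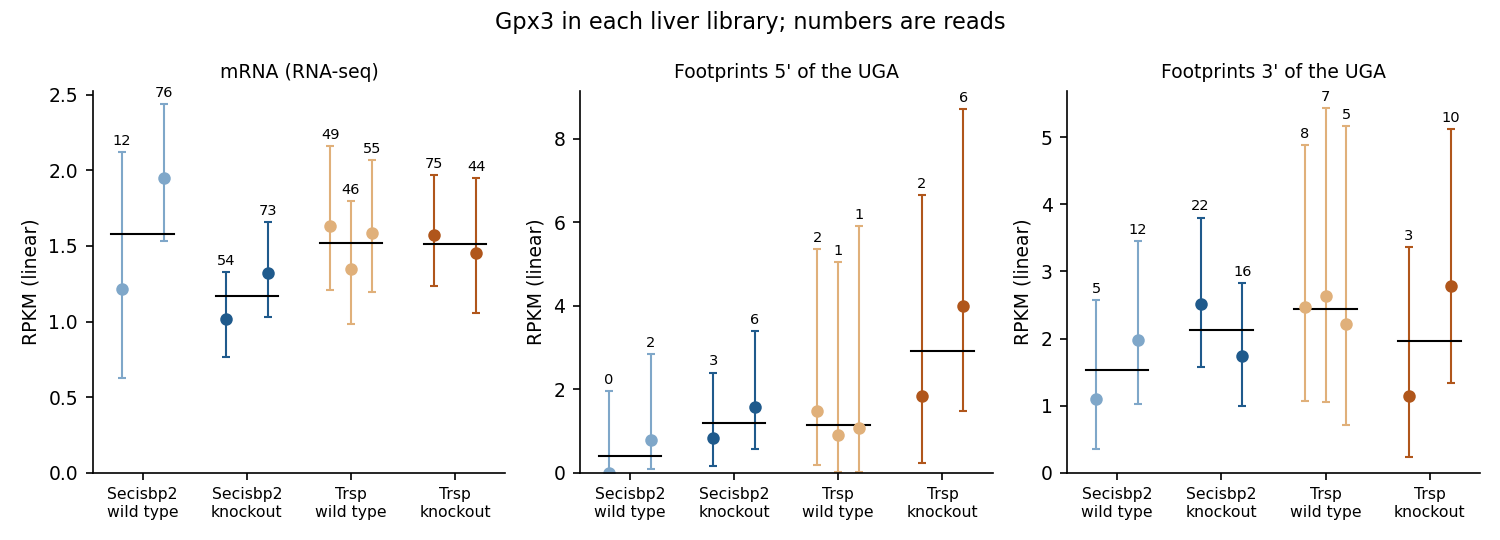
Gpx3 in each liver library, as RPKM on linear axes, for mRNA and footprints on each side of the UGA; points are libraries, bars exact 95% counting intervals, black lines group means, and the number above each bar is the reads. The mRNA stayed between 1.02 and 1.95 RPKM in all 9 livers, and no library had over 6 footprint reads 5' of the UGA.

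Footprints on Gpx3 were few. Secisbp2 wild types had 0 and 2 reads 5' of the UGA (0 and 0.789 RPKM) and the matching knockouts 3 and 6 (0.821 and 1.56 RPKM). Trsp wild types had 2, 1 and 1 reads (1.48, 0.904 and 1.06 RPKM) and Trsp knockouts 2 and 6 (1.84 and 4.004 RPKM). In both comparisons the knockout livers lay above their wild types, at a depth where a single read was worth 0.260 to 1.06 RPKM. In limma the log2 changes were 1.04 in Secisbp2 knockout (SE 0.51, adjusted p = 0.117) and 0.99 in Trsp knockout (SE 0.46, adjusted p = 0.0824), and neither passed. Without replicate 2 of the Secisbp2 wild type the change in Secisbp2 knockout was 1.72, and without replicate 1 it was 0.36. A single Secisbp2 wild type library is left in each case. The change in Trsp knockout stayed at 0.99 and passed without either of these libraries. Gpx3 reached the minimum mean of 1 RPKM in this table only through the Trsp knockout livers, with a mean of 1.38 RPKM over all libraries and 0.946 without them. The ratios of read rates were 2.66 (exact 95% interval 0.551 to 25.3) and 2.63 (0.704 to 11.9). The knockout effects differed by -0.05 (SE 0.69, adjusted p = 0.946), where 25% of genes were called upward and 30% downward, and the wild types by 1.02 (SE 0.46, adjusted p = 0.119).

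Footprints 3' of the UGA of Gpx3 had 5 and 12 reads in Secisbp2 wild types (1.10 and 1.97 RPKM) and 22 and 16 in the matching knockouts (2.51 and 1.74 RPKM). There were 8, 7 and 5 reads in Trsp wild types (2.48, 2.64 and 2.21 RPKM) and 3 and 10 in Trsp knockouts (1.15 and 2.78 RPKM). Each knockout overlapped its wild type. By limma, the log2 change was 0.38 in Secisbp2 knockout (SE 0.40, 95% interval -0.50 to 1.27, adjusted p = 0.390) and -0.34 in Trsp knockout (SE 0.36, 95% interval -1.14 to 0.47, adjusted p = 0.377). Here 75% and 83.3% of the 12 genes tested were called, all of them lower, and Gpx3 was not. Between the wild types the difference was 0.56 (SE 0.36, adjusted p = 0.272), with 16.7% of genes called upward and 8.33% downward, and between the knockout effects it was -0.72 (SE 0.54, adjusted p = 0.281), with 25% called, all downward. Scaling to the selenoproteins' median ratio takes the median gene as unchanged, although 75% and 83.3% of these genes were called lower. It shifts the changes up by 2.22 and 2.98, to 2.61 (limma adjusted p = 0.00297) and 2.65 (adjusted p = 0.000736) for Gpx3. That shift is set in advance by the method, so these 2 values are no evidence of a rise.

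**Figure D3:**
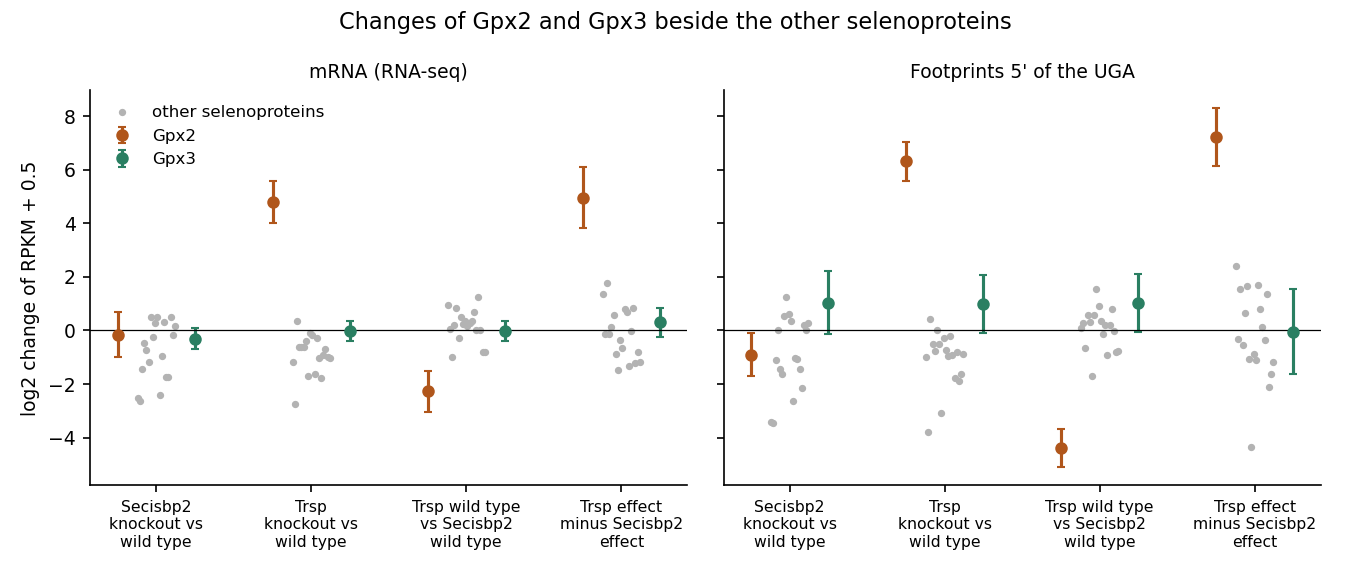
Log2 changes of RPKM + 0.5 for Gpx2, Gpx3 and the other selenoproteins tested, for mRNA and for 5' footprints; coloured bars are 95% intervals of the limma fit and grey points the other genes. Gpx2 stood at 4.80 and 6.32 in Trsp knockout against wild type and at -2.27 and -4.39 between the wild types, and Gpx3 stood at -0.30 and -0.00494 for mRNA in the knockout comparisons.

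The passage of the UGA, read as the density of footprints 3' of the codon relative to that 5' of it, was low for Gpx2 wherever it could be read. Summed over livers, the 3' density was 5.69% of the 5' density in Secisbp2 wild type (21 reads 5', 6 reads 3', exact 95% interval 1.88% to 14.6%), 5.53% in Secisbp2 knockout (18 and 5 reads, 1.60% to 15.5%) and 2.90% in Trsp knockout (48 and 7 reads, 1.11% to 6.45%). The 3 intervals overlap, and the differences between these ratios were not tested. In Trsp wild type both windows held 0 reads and no ratio can be given. Gpx2 was under the minimum of 1 RPKM in the 3' table, at a mean of 0.445 RPKM, and was not tested there. The 7 reads of the Trsp knockout livers, at 0.783 and 1.42 RPKM, were at least 3.06-fold above the floor over the wild type group. Without the filter the limma log2 change of these 3' footprints was 1.65 (SE 0.34, adjusted p = 0.0006 over 15 genes). The Trsp wild types entered this fit as identical values, so its SE and adjusted p leave out the counting error of 0 reads. With 2 and 5 reads in the knockout libraries, this value is a description and no independent result.

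For Gpx3 the order was the other way, with more footprints per base 3' of the UGA than 5' of it in 3 of the groups. The 3' density was 354% of the 5' density in Secisbp2 wild type (2 and 17 reads, exact 95% interval 84.1% to 3163%), 176% in Secisbp2 knockout (9 and 38 reads, 83.7% to 414%), 209% in Trsp wild type (4 and 20 reads, 69.9% to 839%) and 67.8% in Trsp knockout (8 and 13 reads, 26.0% to 189%). All 4 intervals include 100%. By library, the ratio was 62.6% and 69.5% in the Trsp knockouts and 167%, 292% and 209% in their wild types, with no overlap. The limma log2 change of this ratio, with 0.5 RPKM added to each density, was -1.33 in Trsp knockout (SE 0.41, adjusted p = 0.0250), where 75% of the 12 genes were called. The 5' density in it had reached the minimum of 1 RPKM only through the Trsp knockout livers, so this value is a description of these livers and no independent result. The call was lost without Trsp knockout replicate 1 (adjusted p = 0.0793) or replicate 2 (adjusted p = 0.0911) and with 0.1 RPKM added (adjusted p = 0.0889). In Secisbp2 knockout the change was -0.66 (SE 0.45, adjusted p = 0.375), where 25% were called.

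The other glutathione peroxidases with selenocysteine give a scale for these ratios. Gpx1, the cytosolic peroxidase that clears hydrogen peroxide, had a 3' density of 73.7% of the 5' density in Secisbp2 wild type and 108% in the matching knockout. Summed over the Trsp groups it was 52.3% in wild type and 18.2% in knockout. By library the Gpx1 ratio was 104%, 17.3% and 135% in Trsp wild types and 24.4% and 15.5% in Trsp knockouts, so these groups overlapped. The limma log2 change of this Gpx1 ratio in Trsp knockout was -1.66 (SE 0.86, adjusted p = 0.103) and was not called. Gpx4, which reduces lipid peroxides in membranes, stood at 15.5% and 4.28% in the Secisbp2 groups and at 24.1% and 2.37% in the Trsp groups. Gpx2 had the second lowest ratio of the 15 genes with reads on both sides in Secisbp2 wild type and the third lowest of 15 in Trsp knockout. In Trsp knockout the interval of Gpx2 overlapped that of Gpx4 (1.74% to 3.14%) and not that of Gpx1 (14.7% to 22.5%).

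**Figure D4:**
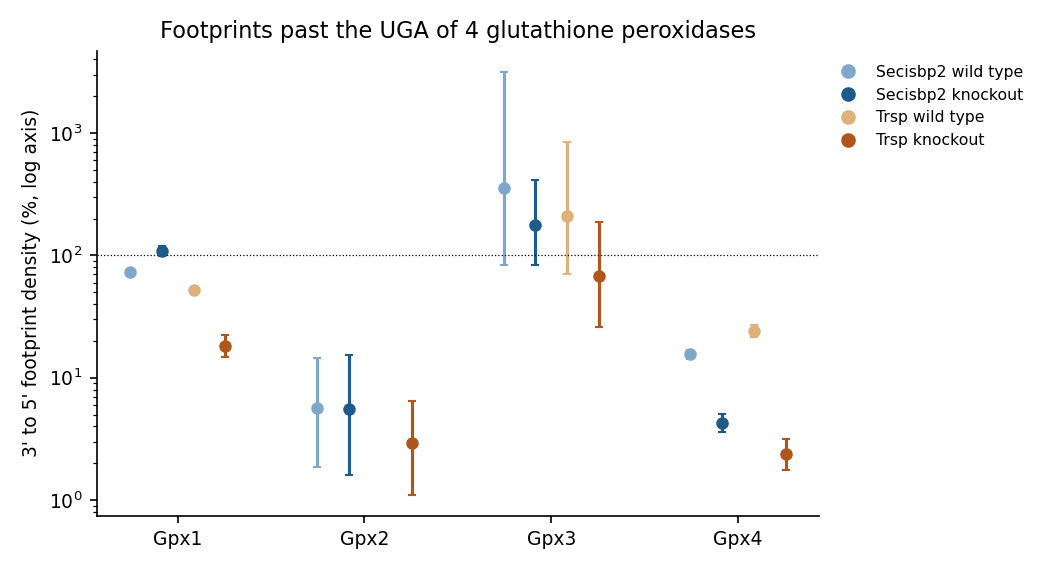
Footprint density 3' of the UGA as a percentage of that 5' of it, on a log axis, for Gpx1, Gpx2, Gpx3 and Gpx4 in each genotype group; points come from reads summed over a group, bars are exact 95% counting intervals, and the dotted line is 100%. Gpx2 lies at 2.90% to 5.69% and Gpx3 at 67.8% to 354%; Gpx2 has no point for Trsp wild type, where it had 0 reads.

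Footprints 5' of the UGA per mRNA, the translational efficiency, were not called as changed for either gene in the fit over all libraries. The Gpx2 ratio of 5' footprint RPKM to mRNA RPKM, for libraries of the same number, was 4.27 and 5.47 in Secisbp2 wild type, 3.995 and 1.94 in Secisbp2 knockout and 3.32 and 2.19 in Trsp knockout. That of Gpx3 was 0 and 0.405 in Secisbp2 wild types, 0.809 and 1.19 in the matching knockouts, 0.909, 0.672 and 0.669 in Trsp wild types and 1.17 and 2.75 in Trsp knockouts. The lowest Gpx2 ratio among libraries with footprints, 1.94, was above the Gpx3 ratio of all but 1 library. Whether libraries of the same number come from the same liver is not stated in the labels. In limma this was a log2 change of -0.75 for Gpx2 in Secisbp2 knockout (SE 0.55, adjusted p = 0.565) and 1.34 for Gpx3 (SE 0.57, adjusted p = 0.178), where 5% of 20 genes were called. For Gpx3 in Trsp knockout it was 1.00 (SE 0.52, adjusted p = 0.225), where 10% were called. For Gpx2 in Trsp knockout the fitted value was 1.52 (SE 0.50, adjusted p = 0.0676). It stands against a wild type with 0 footprints and 3 mRNA reads. It passed with 1 RPKM added (1.43, adjusted p = 0.0485), in a fit of the 2 Trsp groups alone (1.52, adjusted p = 0.00751) and without any one of the Secisbp2 wild type libraries (1.52, adjusted p = 0.0334 or 0.0362), and came to -0.61 (adjusted p = 0.530) with Secisbp2 wild type as control. For Gpx3 in Secisbp2 knockout the value was 2.03 if footprint replicate 2 of the wild type was left out. That leaves a single wild type footprint library, with 0 Gpx3 reads 5' of the UGA. Gpx3 entered the efficiency tests only through the Trsp knockout livers, with a 5' mean of 1.38 RPKM and 0.946 without them. Its efficiency values are thus a description of these livers and no independent result.

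The other glutathione peroxidases and secreted or NRF2-linked selenoproteins are set beside the pair. In Trsp knockout livers 1 of the 4 glutathione peroxidase mRNAs rose (Gpx2) and 1 fell (Gpx1, -2.76, limma adjusted p = 1.23e-07), with a median log2 change of 0.17 against -0.66 over all 20 genes, of which 5% were called higher and 70% lower. In Secisbp2 knockout livers none of the 4 rose and 2 fell (Gpx1, -2.64, adjusted p = 3.82e-07, and Gpx4, -1.44, adjusted p = 6.28e-05), with a median of -0.87 against -0.39; over all genes 20% were called higher and 50% lower, the same share lower as in the family. For footprints 5' of the UGA the counts were the same, 1 higher (Gpx2) and 1 lower (Gpx1, -3.78, adjusted p = 0.000945) in Trsp knockout livers, and 0 higher and 2 lower in Secisbp2 knockout livers. Over all 20 genes the 5' footprints of 5% were called higher and 55% lower in Trsp livers, and 0% and 45% in Secisbp2 livers. The mRNAs of Gpx1, Msrb1, Selenoh and Selenow, known to follow the supply of selenium, fell in both knockouts (4 of 4), with medians of -1.45 in Secisbp2 and -1.18 in Trsp livers, where 50% and 70% of all genes tested were called lower. Of their 5' footprints 2 of 4 were called lower in each knockout. Selenop, the other secreted selenoprotein and the selenium carrier of plasma, fell in both knockouts, by 2.42 and 1.61 on the log2 scale (adjusted p = 1.78e-06 and 1.09e-05). Txnrd1, the cytosolic thioredoxin reductase, was the other NRF2 target measured, and 7 of the 9 listed NRF2 targets are not rows of the tables. Txnrd1 fell by 0.70 in Trsp knockout livers (adjusted p = 0.000665), where Gpx2 rose, and rose by 0.50 in Secisbp2 knockout livers (adjusted p = 0.00852).

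Across the 9 RNA libraries the highest Pearson correlations of Gpx2 with other selenoproteins, on log2(RPKM + 0.5), were with Gpx4 (0.284), Gpx3 (-0.0997) and Selenom (-0.239), an endoplasmic reticulum protein. Only that with Gpx4 was positive, and the strongest were inverse, with Selenot (-0.930) and Selenok (-0.927). The highest of Gpx3 were with Selenos (0.719), a membrane protein of the endoplasmic reticulum, Selenop (0.560) and Selenom (0.508). These describe 9 libraries in 4 groups that share library sets and scaling.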

How the data were processed

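The authors deposited RPKM values for footprints on each side of the UGA and for RNA-seq, per the file headers. The submitters' processing notes name Bowtie 0.12.8 and the mm9 build; the annotation, the windows and the treatment of reads shared with near-identical sequences, such as the Gpx2 pseudogene Gpx2-ps1, are not given in the sources used here. The labels speak of 3 mice per genetic background and give no mouse for a library, so p-values measure the spread between these libraries. Symbols came from a RefSeq gene table: 11 of 23 genes matched by symbol and 12 by synonym.

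Reads, windows and depths were recovered from the RPKM as the smallest whole numbers; all nonzero values (312 for footprints, 203 for RNA) came within 0.02 of a whole read, which the recovery itself requires. On simulated data the recovery was exact. Over the 23 genes the libraries held 2970 to 13705 footprint reads 5' of the UGA, 699 to 16856 reads 3' of it and 48753 to 221637 RNA reads. A cell of another gene that held a date was turned back into its serial number.

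Tests used limma 3.58.1 in R 4.3.3 on log2(RPKM + 0.5), a scale that understates changes of low genes, keeping genes whose mean reached 1 RPKM, with all 4 groups in a single fit and two-sided Benjamini-Hochberg adjustment (threshold 0.05) over all genes tested. The 3' to 5' ratio was tested within libraries and translational efficiency as an assay by genotype interaction. In 100 simulated tables with 20 genes the Trsp fit found 99% of 2-fold and 100% of 4-fold mRNA changes, and 73.5% and 89% for 5' footprints, with 4.78% and 5.80% of calls false. The Secisbp2 fit found 97.5% and 100% for mRNA and 68% and 81% for 5' footprints, with 7.71% and 2.61% false. The simulated noise between livers was a fixed value for all genes and was not estimated from the data. Gpx2 mRNA differed between replicates by up to 2.78 times, so these shares do not give the power or error for Gpx2. Intervals on reads are exact Poisson or conditional binomial (Python 3.11.15, scipy 1.17.1), and floors are 3 reads.

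The genes, the lists, the tests and the rule for named genes (both members, Gpx1, Gpx4, Selenop, Txnrd1, and the 3 mRNAs with the highest correlation to each member) were chosen with earlier results of these data known. Alternatives were the added value, the filter, each library left out, the replicate number as a block, the groups in the fit, the control, precision weights and the scaling.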

Additional observations from a re-analysis of the deposited data

Results flagged for a closer look

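The effect of the knockouts on Gpx2 differed between Trsp and Secisbp2 livers by the test of the difference itself. The Trsp effect minus the Secisbp2 effect was 4.95 on the log2 scale for mRNA (SE 0.50, limma adjusted p = 0.000111) and 7.22 for 5' footprints (SE 0.46, adjusted p = 9.11e-06). Gpx2 was higher in both Trsp knockout livers than in all 3 of their wild types in either assay. In Secisbp2 livers the knockout mRNA values lay between the 2 wild type values. Their 5' footprints, at 5.85 and 4.45 RPKM, lay below both wild type values of 14.7 and 6.74 RPKM. That change of -0.90 was not called (limma adjusted p = 0.0604). Leaving out any single library kept the Trsp effect minus the Secisbp2 effect between 4.36 and 5.55 for mRNA and between 6.68 and 7.75 for footprints. The Trsp wild types held 3 mRNA reads and 0 footprints, so the size of both values depends on the 0.5 RPKM added. Identical 0 values also add no spread to the SE for footprints. Both values include the difference between the wild type groups, -2.27 for mRNA and -4.39 for 5' footprints. The Secisbp2 knockout and its wild type come from different library sets, which cannot be told apart from Secisbp2 loss. No group had the 4 livers needed to check for a liver that stands apart.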

How the results depend on the processing

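Of 471 alternatives to 26 values, 415 kept the direction and the side of the threshold, 23 passed where the reported value did not, 3 lost a call and 30 changed sign; adjusted p are limma's, values log2, and causes were not tested. The rise of Gpx2 in Trsp knockout livers kept its call in every alternative tried, at 2.53 to 6.72 for mRNA and 1.92 to 8.62 for 5' footprints, and without any single library at 4.44 to 5.16 and 6.24 to 6.39.

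With the Trsp wild type as control, Secisbp2 knockout Gpx2 was at 2.11 for mRNA (adjusted p = 0.000305), 3.49 for 5' footprints (5.22e-05) and 1.37 for efficiency (0.347), and Gpx3 at -0.18 for 3' footprints (0.634). With both wild types pooled, these Gpx2 values were 1.21 (0.209), 1.73 (0.430) and 0.53 (0.980). With the Secisbp2 wild type as control, Trsp knockout Gpx3 was at 2.02 for 5' footprints (0.0124), 0.23 for 3' footprints (0.582) and 2.04 for efficiency (0.0236), and Gpx2 efficiency at -0.61 (0.530). The pooled wild types gave 1.40 for Gpx3 5' footprints (0.0478). Gpx3 entered the 5' and efficiency tests only through the Trsp knockout livers, and the Secisbp2 wild types had 0 and 2 reads 5' of the UGA. The passing 5' and efficiency values of Gpx3 thus support nothing.

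Scaling to the selenoproteins' median ratio gave Secisbp2 knockout mRNA values of 0.35 for Gpx2 (0.388) and 0.20 for Gpx3 (0.256), and 0.56 for Gpx3 in Trsp knockout (0.00793). For Gpx3 footprints it gave 1.72 (0.0260) and 1.69 (0.0347) 5' of the UGA and 2.61 (0.00297) and 2.65 (0.000736) 3' of it, in Secisbp2 and Trsp knockout, and 0.039 for the difference of the 3' effects (0.952). That scaling takes the median selenoprotein as unchanged, so its upward shifts are set in advance. The Gpx3 values that pass under it support no rise. Precision weights gave 0.10 for Gpx2 mRNA in Secisbp2 knockout (0.866) and 0.00742 for Gpx3 mRNA in Trsp knockout. Adding 1 RPKM gave 0.13 for the difference of the Gpx3 5' effects (0.810) and 1.43 for Gpx2 efficiency in Trsp knockout (0.0485), and adding 0.1 RPKM gave -1.62 for the Gpx3 3' to 5' ratio (0.0889). A fit of the 2 Trsp groups alone gave 1.52 for Gpx2 efficiency (0.00751).

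Replicate numbers were not taken to pair the livers: same-numbered deviations correlated at -0.0439 in Secisbp2 and -0.279 and -0.438 in Trsp livers for mRNA, and at 0.141, and 0.673 and -0.188, for 5' footprints. With the replicate block, Gpx3 mRNA in Trsp knockout was at 0.019 (0.922), and 5' footprints in Secisbp2 knockout at -0.90 for Gpx2 (0.0419) and 1.04 for Gpx3 (0.0329); calls over all genes went from 9 to 13 there and from 12 to 9 in Trsp knockout.

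Without single libraries, the Secisbp2 knockout change ranged from -0.75 to 0.44 for Gpx2 mRNA, -0.56 to -0.045 for Gpx3 mRNA, -1.44 to -0.37 for Gpx2 5' footprints and 0.36 to 1.72 for Gpx3 5' footprints. The Trsp knockout change ranged from -0.069 to 0.037 for Gpx3 mRNA, 0.52 to 1.46 for its 5' and -0.83 to 0.16 for its 3' footprints, and -1.46 to -1.17 for its 3' to 5' ratio. The wild types differed by -0.28 to 0.24 in Gpx3 mRNA and 0.34 to 1.71 in its 5' footprints, and the knockout effects by 0.040 to 0.56 and -0.73 to 0.63. Efficiency ranged from 0.66 to 2.03 for Gpx3 in Secisbp2 knockout and 1.15 to 1.88 for Gpx2 in Trsp knockout. Gpx2 3' footprints, under the minimum, were fitted without the filter. Their 0 to 5 reads per library, and the 0 to 6 of Gpx3 5' of the UGA, limit all ratios.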
